A study of Mus musculus with 9 samples.

Results

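Alx4, Msx1, Lhx6, Lhx8, Hand2, Barx1, Dlx1, Dlx2 and Twist1 encode transcription factors that pattern the embryonic jaw, and their RNA was followed here in cells from the bone covering of the mouse mandible. They were taken by symbol as 9 of the 21958 genes in the expression table. The list was chosen with earlier results of these data known. The cells were mandibular periosteal progenitors, the skeletal precursors of the membrane that wraps bone, and 3 groups of 3 libraries were sequenced. Mutant day 3 libraries came from CTSK-iCre;Plagl1 fl/fl cells after induction. Control day 3 libraries came from Plagl1 fl/fl cells after the same induction, and control day 0 libraries from Plagl1 fl/fl cells without it. All 3 groups thus carried the floxed Plagl1 alleles, and only the mutant carried the Cre, which the Ctsk promoter drives in periosteal progenitors and in osteoclasts. Induction was by dexamethasone (100 nM), ascorbic acid (50 ug/ml) and b-glycerophosphate (5 mM). No library was from day 3 without these additives. A change on induction, as named below, thus cannot be told apart from a change over 3 days in culture. No mutant library at day 0 was analysed here, so a difference between mutant and control at day 3 cannot be told apart from one that was present before induction. Whether libraries of 1 group stem from different cultures or mice is not in the labels, so the p-values speak of the spread among these 9 libraries alone, and that spread may be technical.

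The jaw forms from neural crest cells of the first pharyngeal arch, and their position there is written in homeodomain and basic helix-loop-helix factors. Endothelin signalling switches on Hand2 at the distal end, BMP signalling maintains Msx1 along the distal midline, and FGF signalling from the oral epithelium maintains Lhx6, Lhx8 and Barx1 proximally, towards the molars. Dlx1 and Dlx2 mark the arch along its whole proximal to distal length, nested with Dlx5 and Dlx6. Alx4 acts mainly in the frontonasal and distal midline mesenchyme and Twist1 throughout the crest mesenchyme. Several of these factors later act in bone: Msx1 and Twist1 hold back osteoblast maturation, Dlx factors promote it, and Alx4 and Twist1 are needed for normal skull sutures. The arch that forms the mandible is free of Hox gene expression, which sets it apart from the skeleton behind it.

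RNA from the members was compared by reads per library, from totals of 16204327 to 19859744 reads, scaled by TMM factors to CPM, a measure per library size. Alx4 (ENSMUSG00000040310) lies on chromosome 2 at 93472729 to 93511684 on the plus strand of GRCm39. Msx1 (ENSMUSG00000048450) lies on chromosome 5 at 37977829 to 37981927 on the minus strand. Lhx6 (ENSMUSG00000026890) lies on chromosome 2 at 35971965 to 35995420, and Lhx8 (ENSMUSG00000096225) on chromosome 3 at 154011931 to 154036296, both on the minus strand. Hand2 (ENSMUSG00000038193) lies on chromosome 8 at 57774018 to 57777668, Barx1 (ENSMUSG00000021381) on chromosome 13 at 48816474 to 48819983 and Twist1 (ENSMUSG00000035799) on chromosome 12 at 34007670 to 34009828, all on the plus strand. Dlx1 (ENSMUSG00000041911, chromosome 2, 71358457 to 71364325, plus strand) and Dlx2 (ENSMUSG00000023391, 71373752 to 71377098, minus strand) point towards each other across 9426 bases. Alx4 alone overlaps another gene of the table: it shares 20312 bases with Ext2 on the opposite strand.

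Promoter sequences are shown for Msx1 and Lhx8, the members that rose most on induction in control cells, and for Dlx2 and Twist1, which were not called there. They are the 250 bases before the transcription start in RefSeq (GRCm38.p6), which held promoters for 8 of the 9 members and none for Alx4. Each is given 5′ to 3′ on the gene's own strand, with capitals marking CANNTG, the E box that helix-loop-helix factors such as Twist1 and Hand2 bind. The windows are chr5:37824586-37824835 (minus strand) for Msx1, chr3:154330561-154330810 (minus) for Lhx8, chr2:71546755-71547004 (minus) for Dlx2 and chr12:33957421-33957670 (plus) for Twist1.
Msx1: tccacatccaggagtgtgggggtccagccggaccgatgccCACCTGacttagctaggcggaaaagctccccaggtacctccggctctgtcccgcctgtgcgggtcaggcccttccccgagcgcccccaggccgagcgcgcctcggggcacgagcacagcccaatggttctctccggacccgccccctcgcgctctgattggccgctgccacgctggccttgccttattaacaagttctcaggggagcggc
Lhx8: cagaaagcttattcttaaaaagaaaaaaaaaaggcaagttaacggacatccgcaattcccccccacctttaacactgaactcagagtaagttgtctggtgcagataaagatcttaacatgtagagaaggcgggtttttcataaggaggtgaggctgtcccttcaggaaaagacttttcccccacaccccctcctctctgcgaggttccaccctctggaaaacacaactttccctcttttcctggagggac
Dlx2: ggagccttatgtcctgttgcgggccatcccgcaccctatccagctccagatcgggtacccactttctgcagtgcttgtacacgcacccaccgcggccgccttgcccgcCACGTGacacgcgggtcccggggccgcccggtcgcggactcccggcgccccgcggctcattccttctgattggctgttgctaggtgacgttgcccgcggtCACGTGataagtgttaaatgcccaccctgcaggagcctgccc
Twist1: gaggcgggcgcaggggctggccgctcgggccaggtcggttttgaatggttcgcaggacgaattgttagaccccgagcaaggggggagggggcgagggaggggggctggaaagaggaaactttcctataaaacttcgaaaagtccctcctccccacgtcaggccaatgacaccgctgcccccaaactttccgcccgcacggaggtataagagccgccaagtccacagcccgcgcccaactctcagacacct

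The Dlx2 window holds 2 E boxes, both CACGTG, the Msx1 window holds 1, and the Lhx8 and Twist1 windows hold none, while 66.2% of all 32851 RefSeq promoter windows of this length hold at least 1. GC content is 68.0% for Msx1, 66.4% for Dlx2 and 62.4% for Twist1, against 46.0% for Lhx8 and a median of 52.4% over all windows. CG dinucleotides number 20 in the Msx1 window, 24 in Dlx2 and 18 in Twist1, but 4 in Lhx8. Of 3 further motifs, all read the same on both strands, TAATTA, a homeodomain core, is found among the members in the Hand2 window only and in 4.84% of all windows. GGGGCCCC, a sequence to which PLAGL1 binds, is in none of the 10 windows of the 8 matched members and in 0.889% of all. AGAACA followed after 3 bases by TGTTCT, a palindromic glucocorticoid response element, is in none of them and in 0.00913% of all windows. Alx4, which had no promoter there, was not searched for any of these motifs. A match is a string of letters and no measurement of binding.

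Of the 9 members, 8 passed the filter on low counts, and Lhx6 did not. Between mutant and control at day 3, 2 of the 8 were called at an adjusted p below 0.05, where 17.7% of the 13013 genes tested were called: Lhx8 rose (7.95% of genes were called higher) and Alx4 fell (9.75% were called lower). The median log2 fold change over the 8 was -0.25, and over all genes tested 0.0012. Induction of control cells raised 6 of the 8 and lowered none, against a background of 65.5% of genes called, 33.1% higher and 32.4% lower, and the median log2 fold change of the 8 was 0.69, against 0.0084 over all genes. The other two, Dlx2 and Twist1, were not called. Set against control cells at day 0, mutant cells at day 3 had 3 of 8 members higher (background 33.7%) and 1 lower (34.7%), 4 called in all where 68.4% of genes were called, with a median log2 fold change of 0.34. The comparisons share libraries, so the counts are not independent of one another.

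**Figure D1:**
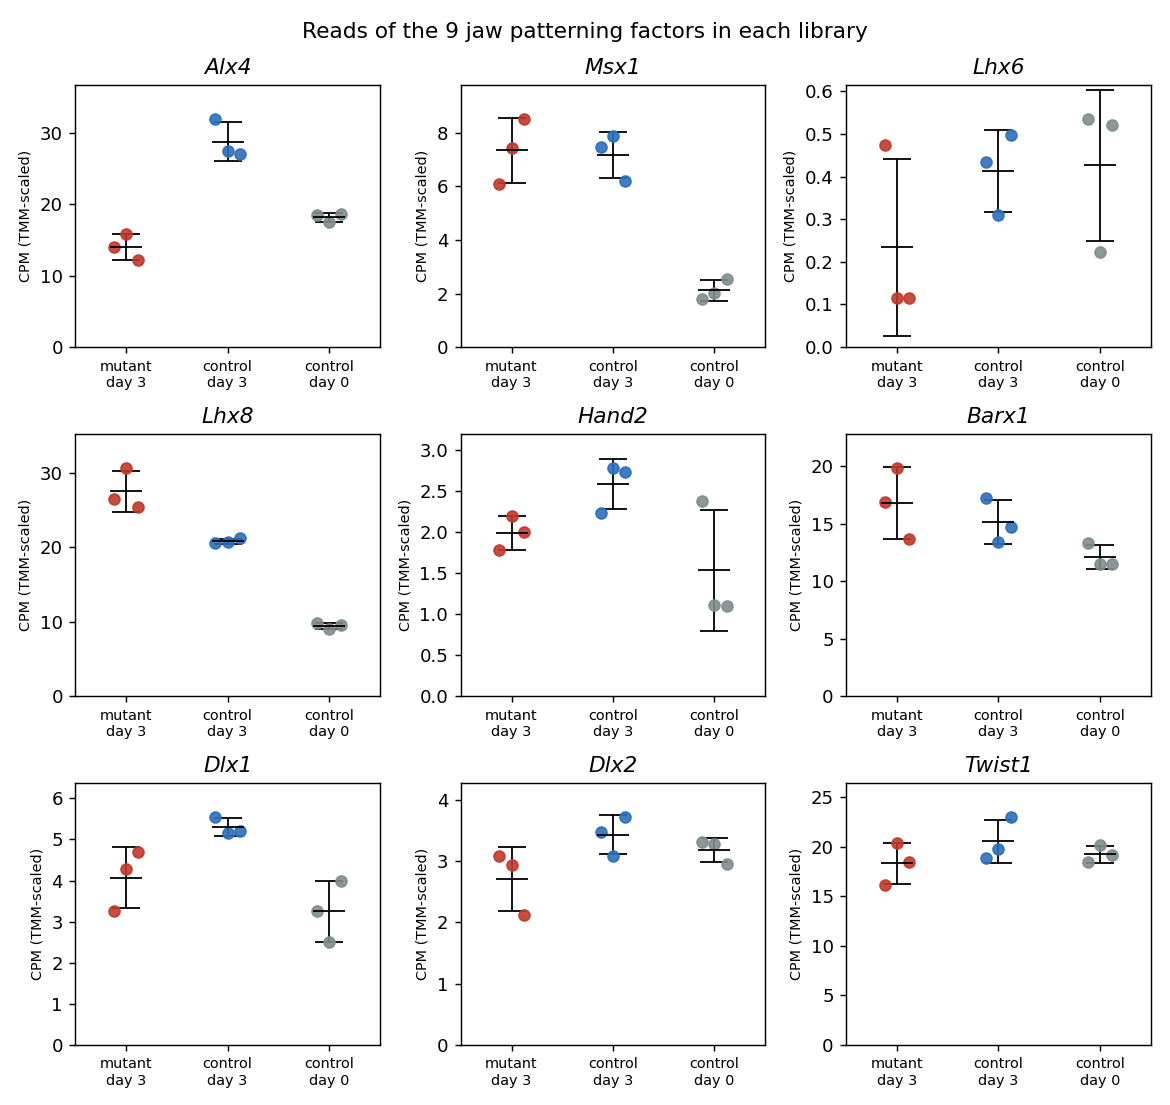
Reads of each jaw factor in every library, as TMM-scaled CPM on linear axes starting at 0. Points are libraries, bars the mean and SD of 3, for mutant day 3 (red), control day 3 (blue) and control day 0 (grey). Alx4 is lowest and Lhx8 highest in the mutant libraries, and Msx1 is higher in both day 3 groups than at day 0.

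Several facts about the libraries stand beside these results. Plagl1 averaged 25.1 ± 1.1 CPM in mutant libraries, 44.9 ± 0.98 CPM in day 3 controls and 36.6 ± 1.6 CPM in day 0 controls (SD, n = 3 each), so it was lower but not absent in the mutant. The 4 Y-linked genes measured were all called lower in the mutant than in day 3 controls. Their summed level was 91.5 to 108 CPM in mutant libraries, 260 to 282 CPM in day 3 controls and 278 to 283 CPM in day 0 controls, so the sex makeup of the cultures and the genotype cannot be told apart. All 14 listed markers of periosteal mesenchyme were read in every group, and their summed level was 18926 to 20637 CPM in mutant libraries, 26014 to 27244 CPM in day 3 controls and 16946 to 18414 CPM in day 0 controls. All 15 macrophage markers were read as well, and summed to 22107 to 24228 CPM in mutant libraries, 21039 to 23044 CPM in day 3 controls and 14812 to 15245 CPM in day 0 controls. These are bulk samples, in which fewer cells of a type and less RNA per cell cannot be told apart. Of 7 epithelial markers 5 (Epcam, Krt5, Krt14, Krt8 and Krt18) had 0 reads in both day 3 groups, and the summed level was at most 3.24 CPM in any library. The 1 tested, Trp63, averaged 2.12 CPM in mutant libraries, 2.87 CPM in day 3 controls and 0.470 CPM in day 0 controls. It was called higher on induction of control cells (6.11-fold, adjusted p = 3.0e-07). Of 39 Hox genes, which label skeleton outside the jaw, 22 had 0 reads in all 9 libraries and 29 had fewer than 10 reads in all. Of the 39, 3 passed the filter, and the Hox genes together summed to 6.64 to 9.01 CPM per library.

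Levels were compared between genes per length, as the deposited FPKM values. In mutant cells Barx1 (11.6 ± 2.1 FPKM, SD, n = 3), Twist1 (10.8 ± 1.2 FPKM) and Lhx8 (10.5 ± 1.0 FPKM) had the highest levels, with neighbouring ranges that overlapped. Msx1 (2.29 ± 0.38 FPKM) and Alx4 (1.91 ± 0.24 FPKM) followed and overlapped each other. Dlx2 (0.915 ± 0.17 FPKM), Hand2 (0.816 ± 0.085 FPKM) and Dlx1 (0.727 ± 0.13 FPKM) formed a lower, overlapping run, and Lhx6 lay last at 0.0470 ± 0.041 FPKM. In day 3 controls the order differed in the upper part: Twist1 at 12.3 ± 1.3 FPKM overlapped with Barx1 at 10.6 ± 1.3 FPKM, and then came Lhx8 (8.02 ± 0.14 FPKM), Alx4 (3.98 ± 0.37 FPKM) and Msx1 (2.27 ± 0.27 FPKM), each clear of the next. Dlx2 (1.17 ± 0.11 FPKM), Hand2 (1.07 ± 0.13 FPKM) and Dlx1 (0.960 ± 0.037 FPKM) again overlapped neighbour by neighbour. Lhx6 was at 0.0841 ± 0.019 FPKM. In day 0 controls Twist1 (12.6 ± 0.52 FPKM) stood apart from Barx1 (9.19 ± 0.80 FPKM), and Lhx8 (3.97 ± 0.18 FPKM), Alx4 (2.74 ± 0.11 FPKM) and Dlx2 (1.18 ± 0.072 FPKM) followed without overlap. Msx1 (0.727 ± 0.13 FPKM) was at the level of Hand2 (0.693 ± 0.33 FPKM) and Dlx1 (0.641 ± 0.15 FPKM) there, and Lhx6 was at 0.0944 ± 0.039 FPKM. Over the 9 libraries Twist1 exceeded 70.9% of the tested genes in mean FPKM, Barx1 67.6%, Lhx8 58.6%, Alx4 33.8%, Msx1 24.5%, and Dlx2, Hand2 and Dlx1 18%, 15.4% and 14.5%.

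**Figure D2:**
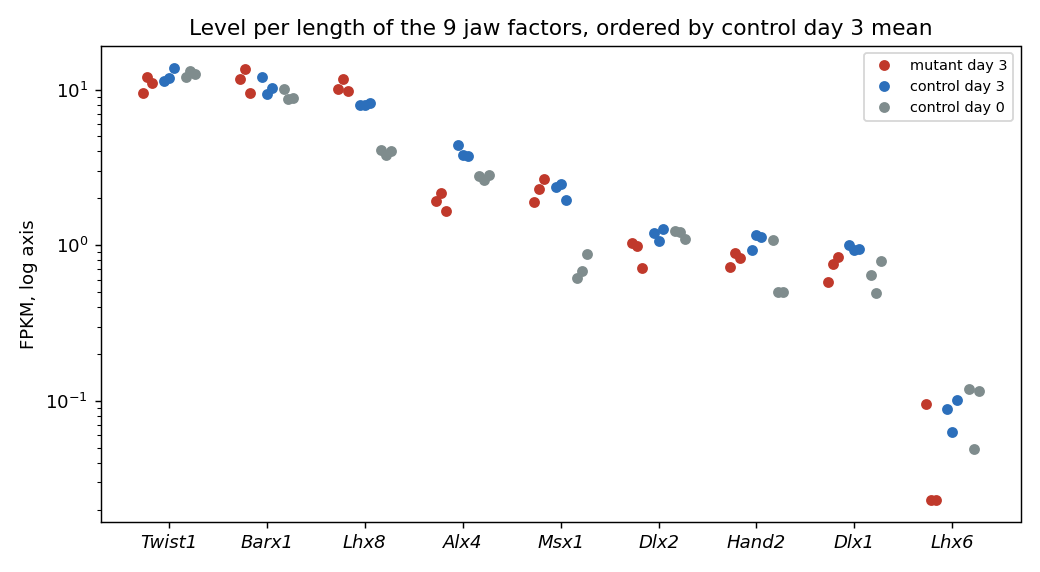
Level per transcript length of the 9 factors in FPKM on a log axis, ordered by the mean in day 3 controls, with 1 point per library for mutant day 3 (red), control day 3 (blue) and control day 0 (grey). Twist1 and Barx1 lie near 10 FPKM in all groups, Lhx6 lies at or below 0.119 FPKM, and Msx1 and Lhx8 are lowest at day 0.

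Alx4, a paired-like homeodomain factor of the facial midline and the limb, showed the largest difference between genotypes among the members. Mutant libraries held 14.0, 15.9 and 12.2 CPM of Alx4, day 3 controls 32.0, 27.5 and 27.0 CPM and day 0 controls 18.5, 17.5 and 18.6 CPM. The groups did not overlap: every mutant library lay below every day 0 control, and every day 0 control below every day 3 control. Alx4 was at 0.487 times the level of day 3 controls in the mutant (95% interval 0.422 to 0.561; log2 fold change -1.04 ± 0.10 SE, edgeR adjusted p = 6.4e-08). In control cells it rose 1.58-fold on induction (log2 0.66 ± 0.09, adjusted p = 2.3e-06). Against day 0 controls the mutant cells at day 3 were at 0.771 times (log2 -0.38 ± 0.10, adjusted p = 0.0026). Leaving out each library in turn gave a log2 fold change between genotypes of -1.14 to -0.94. The sources used here do not give the strand setting of the counting, so reads of Alx4 and Ext2 could have been exchanged. Ext2, an enzyme of heparan sulphate synthesis, averaged 123 ± 5.3 CPM in mutant libraries, 115 ± 7.3 CPM in day 3 controls and 97.1 ± 3.3 CPM in day 0 controls, and was not called between genotypes (1.07-fold, adjusted p = 0.26). The periosteal mesenchyme markers did not move as 1 group between genotypes. Of the 14, 3 were called higher in the mutant than in day 3 controls, 6 lower and 5 were not called. Over all genes tested, 7.95% were called higher and 9.75% lower. The sum of the 14 was lower in the mutant through the abundant matrix genes Col1a1 (0.591 times), Col1a2 (0.617 times) and Postn (0.859 times). The other 11, split off after the values were seen, summed to 5595 to 5665 CPM in mutant libraries, 4862 to 5097 CPM in day 3 controls and 1374 to 1430 CPM in day 0 controls. The abundant genes among them were higher in the mutant than in day 3 controls for Ly6a (1784 and 1234 CPM) and Cxcl12 (2413.5 and 2180 CPM). Prrx1, Ctsk and Nt5e, also among the 11, were called lower. The surface markers Thy1 (1.70-fold, adjusted p = 2.4e-08) and Ly6a (1.45-fold, adjusted p = 1.4e-06) and the chemokine gene Cxcl12 (1.11-fold, adjusted p = 0.048) were the 3 called higher. Prrx1, a homeodomain factor of limb and facial mesenchyme, was called lower at 0.795 times (adjusted p = 5.2e-05). Also called lower were the surface marker Nt5e (0.304 times, adjusted p = 2.3e-06) and Ctsk, whose promoter drives the Cre (0.816 times, adjusted p = 0.0010). On induction of control cells, where 33.1% of all genes tested were called higher and 32.4% lower, 8 of the 14 rose and 3 fell. Prrx1 was among those that rose, at 1.42-fold, and the 3 that fell were Pdgfrb, Thy1 and Mcam. The part of these markers in the Alx4 difference was not tested.

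Among paralogs, Alx1, which acts with Alx4 in midface development, was also called lower in the mutant at 0.361 times (adjusted p = 0.032). Its level was low, at 0.308 ± 0.24 CPM in mutant libraries and 0.862 ± 0.23 CPM in day 3 controls. The genes with profiles nearest to Alx4 over the 9 libraries, of 12002 compared by Euclidean distance between centred log2 CPM values, were Arhgef19 (distance 0.398), which encodes a guanine nucleotide exchange factor, Tnmd (0.430), the tendon protein tenomodulin, and Adamtsl1 (0.441), an ADAMTS-like matrix protein. Tnmd had 24.6 ± 2.3 CPM in mutant libraries, 54.3 ± 6.1 CPM in day 3 controls and 35.2 ± 1.3 CPM in day 0 controls.

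Msx1, a homeodomain repressor downstream of BMP signalling, had the largest rise on induction of the 8. It had 6.11, 7.44 and 8.52 CPM in mutant libraries, 7.46, 7.88 and 6.21 CPM in day 3 controls, and 1.80, 2.0 and 2.55 CPM in day 0 controls. Both day 3 groups lay above all day 0 libraries and overlapped each other. In control cells Msx1 rose 3.42-fold on induction (log2 1.78 ± 0.18, adjusted p = 1.9e-08), and mutant cells at day 3 were 3.50-fold above day 0 controls (adjusted p = 1.3e-08). Between mutant and control at day 3 the ratio was 1.02 with a 95% interval of 0.820 to 1.27, and it was not called (adjusted p = 0.92). Its sign turned when 1 library was left out: the log2 value was -0.09 without mutant replicate 3 and -0.06 without day 3 control replicate 3. Msx2 did not pass the filter.

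Lhx8 and Lhx6 are LIM homeodomain factors of the oral mesenchyme with overlapping roles in palate and tooth development. Lhx8 had 26.5, 30.6 and 25.4 CPM in mutant libraries, 20.6, 20.7 and 21.2 CPM in day 3 controls and 9.77, 9.02 and 9.56 CPM in day 0 controls. The 3 groups were fully separate, with the mutant highest. In the mutant Lhx8 was 1.32-fold above day 3 controls (95% interval 1.17 to 1.5; log2 0.40 ± 0.09, adjusted p = 0.0019). Its rise on induction in control cells was 2.20-fold (log2 1.14 ± 0.10, adjusted p = 7.0e-10), and mutant cells at day 3 were 2.91-fold above day 0 controls (adjusted p = 2.1e-12). With each library left out in turn the log2 difference between genotypes was 0.32 to 0.46. The mutant libraries spread more widely than day 3 controls, at 27.5 ± 2.8 CPM and 20.8 ± 0.33 CPM. Of the 15 macrophage markers 7 were called higher in the mutant and none lower, with Fcgr1 at 1.28-fold and Cd68 at 1.19-fold. Their sums, given above, overlapped between genotypes. On induction of control cells 11 were called higher and 4 lower. Beside these and the marker counts below, 7.95% of all genes tested were called higher and 9.75% lower between genotypes. On induction 33.1% were called higher and 32.4% lower. Markers of other cell types also differed between the groups. The 8 skeletal muscle markers summed to 39.2 to 45.6 CPM in mutant libraries, 26.9 to 31.2 CPM in day 3 controls and 19.9 to 22.4 CPM in day 0 controls, and 3 of the 4 tested were called higher in the mutant than in day 3 controls. The 8 osteoclast markers summed to 157 to 160.4 CPM in mutant libraries, 131 to 141 CPM in day 3 controls and 82.9 to 97.7 CPM in day 0 controls. Of the 4 tested, 1, Acp5, was called higher in the mutant. Acp5 averaged 118.5 CPM in mutant libraries, 94.1 CPM in day 3 controls and 5.92 CPM in day 0 controls. On induction of control cells Acp5 was called higher and the other 3 lower, among them Atp6v0d2 at 0.103 times and Nfatc1 at 0.754 times. The rise of the osteoclast sum on induction was thus not shared by most of the tested markers. Endothelial markers summed to 9.13 to 9.83 CPM in mutant libraries, 5.53 to 6.26 CPM in day 3 controls and 4.0 to 6.17 CPM in day 0 controls, with 2 of 5 tested called higher in the mutant. Smooth muscle and pericyte markers ran the other way, at 524 to 614 CPM in mutant libraries, 771 to 875 CPM in day 3 controls and 2707 to 2784 CPM in day 0 controls, with 5 of 8 called lower and 1 higher in the mutant. Their part in the Lhx8 difference was not tested.

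The profiles nearest to Lhx8 were those of Lrrc25 (distance 0.169), which encodes a leucine-rich repeat protein, Slc43a3 (0.174), a solute carrier, and Ptx3 (0.215), a secreted pentraxin. Their ratios between mutant and control at day 3 were 1.29, 1.33 and 1.34, and their rises on induction 2.14-fold, 2.27-fold and 2.29-fold. Ratios close to those of Lhx8 follow from picking the genes by nearness over these same libraries, and the same holds for the Alx4 neighbours. The distances to Lhx8 are smaller than those of the Alx4 neighbours, on levels that are higher. Ptx3 averaged 1151 ± 35 CPM in mutant libraries, 860 ± 10 CPM in day 3 controls and 375.2 ± 5.1 CPM in day 0 controls.

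Lhx6 had 8, 2 and 2 reads in mutant libraries, 8, 6 and 8 reads in day 3 controls and 11, 4 and 9 reads in day 0 controls. The groups overlapped and the levels were near the limit of detection. By unscaled library totals, 3 reads corresponded to 0.151 to 0.185 CPM. Fitted without the filter, Lhx6 was not called between genotypes (adjusted p = 0.50) or on induction (adjusted p = 0.96), so no difference was detectable at this depth. Lhx6 and Lhx8 thus stood far apart in level, at 0.0470 and 10.5 FPKM in mutant cells and 0.0841 and 8.02 FPKM in day 3 controls.

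Hand2, the helix-loop-helix factor of the distal arch that acts downstream of endothelin, had few reads, 19 to 54 in any library. It had 1.78, 2.19 and 2.0 CPM in mutant libraries, 2.23, 2.78 and 2.73 CPM in day 3 controls and 2.38, 1.11 and 1.10 CPM in day 0 controls. All mutant libraries lay below all day 3 controls, but the ratio of 0.773 (95% interval 0.530 to 1.13) was not called (adjusted p = 0.36). Day 0 control replicate 1 lay among the day 3 controls and the other two well below them. In control cells Hand2 rose 1.65-fold on induction (log2 0.72 ± 0.27, adjusted p = 0.023). This call rested on single libraries: the log2 fold change was 1.21 without day 0 replicate 1 (adjusted p = 0.00086), 0.53 without day 0 replicate 2 or 3 (adjusted p = 0.12 each), and 0.66 and 0.68 without day 3 control replicates 2 and 3 (adjusted p = 0.074 and 0.060). Scaling by library totals alone also ended it (adjusted p = 0.056). Against day 0 controls the mutant cells at day 3 were 1.27-fold higher, not called (adjusted p = 0.28). Without day 0 replicate 1 that comparison gave a log2 value of 0.84 and was called (adjusted p = 0.016).

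Barx1, a homeodomain factor of molar and stomach mesenchyme, had 16.9, 19.9 and 13.7 CPM in mutant libraries, 17.2, 13.4 and 14.7 CPM in day 3 controls and 13.3, 11.5 and 11.5 CPM in day 0 controls. The day 3 groups overlapped each other and each lay above day 0. Between genotypes the ratio was 1.11 (95% interval 0.931 to 1.33, adjusted p = 0.43), not called. In control cells Barx1 rose 1.25-fold on induction (log2 0.32 ± 0.13, adjusted p = 0.032), and mutant cells at day 3 were 1.39-fold above day 0 controls (adjusted p = 0.0022). The call in control cells was lost without day 3 control replicate 1 (adjusted p = 0.18) and without day 0 replicate 2 or 3 (adjusted p = 0.10 and 0.095). It was also lost when counts were scaled by library totals alone, where the log2 value was 0.20 (adjusted p = 0.17), and on FPKM.

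Dlx1 and Dlx2 encode homeodomain factors of the Dlx family, which acts in nested domains along the arch. Dlx1 had 3.26, 4.27 and 4.69 CPM in mutant libraries, 5.55, 5.15 and 5.22 CPM in day 3 controls and 3.26, 2.51 and 4.0 CPM in day 0 controls. Day 3 controls lay above both other groups, which overlapped. Dlx1 rose 1.63-fold in control cells on induction (log2 0.71 ± 0.18, adjusted p = 0.0018). In the mutant it was at 0.769 times the level of day 3 controls (95% interval, unadjusted, 0.595 to 0.994), which did not pass the threshold (adjusted p = 0.15), and against day 0 controls it was 1.26-fold, not called (adjusted p = 0.13). Dlx2 had 3.08, 2.94 and 2.11 CPM in mutant libraries, 3.48, 3.09 and 3.73 CPM in day 3 controls and 3.31, 3.29 and 2.95 CPM in day 0 controls. Mutant libraries lay below all day 3 controls, at a ratio of 0.792 (95% interval 0.599 to 1.05, adjusted p = 0.25), not called. Its induction ratio in control cells was 1.07 (95% interval 0.820 to 1.41, adjusted p = 0.65), also not called, and its log2 value changed sign under library totals and FPKM. The FPKM ratio of Dlx1 to Dlx2 was 0.560 to 1.17 in mutant libraries, 0.741 to 0.882 in day 3 controls and 0.404 to 0.716 in day 0 controls.

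The paired genes Dlx5 and Dlx6, which give the arch its lower-jaw identity, were at 0.701 times (adjusted p = 0.053) and 0.653 times (adjusted p = 0.11) the day 3 control level in the mutant, neither passing the threshold. All 3 mutant libraries lay below all day 3 controls for each of the 4 Dlx genes that passed the filter. Their summed level was 3.59 to 4.35 FPKM in mutant libraries, 5.11 to 6.18 FPKM in day 3 controls and 5.03 to 6.13 FPKM in day 0 controls, a sum put together after the values were seen and not tested. Among the 8 members tested, 5 (Alx4, Lhx8, Hand2, Dlx1 and Dlx2) did not overlap between genotypes at day 3, against 33.4% of all genes tested. The members that did not overlap numbered 5 of 8 between control day 3 and day 0, where 70.8% of genes did not, and 4 of 8 between mutant day 3 and control day 0, where 70.4% did not. Dlx3 and Dlx4 did not pass the filter.

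Twist1, a helix-loop-helix factor of the crest mesenchyme and the coronal suture, had 16.2, 20.4 and 18.5 CPM in mutant libraries, 18.8, 19.8 and 23.0 CPM in day 3 controls and 18.4, 20.2 and 19.2 CPM in day 0 controls. The 3 groups overlapped. The ratio between genotypes at day 3 was 0.894 (95% interval 0.776 to 1.03, adjusted p = 0.28), and the induction ratio in control cells was 1.07 (95% interval 0.927 to 1.23, adjusted p = 0.41), neither called. Mutant cells at day 3 were at 0.954 times day 0 controls (adjusted p = 0.55). Its paralog Twist2 was not called between genotypes (1.24-fold, adjusted p = 0.58).

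**Figure D3:**
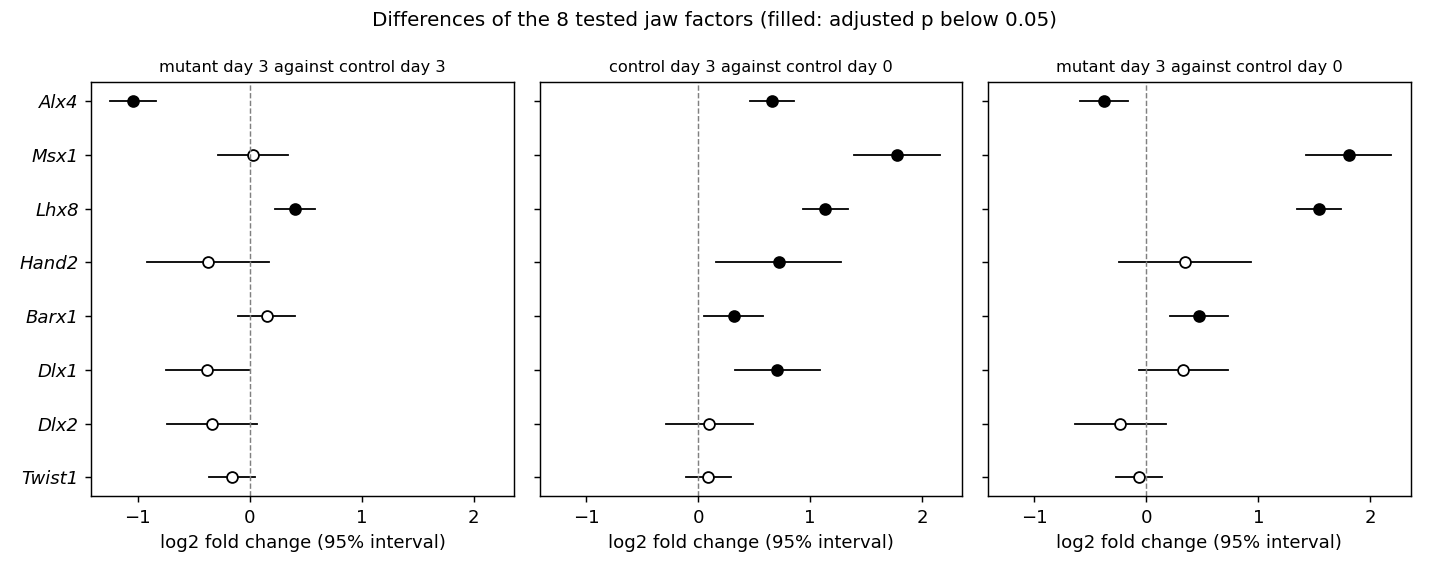
Log2 fold change of the 8 tested factors with unadjusted 95% intervals, in mutant against control at day 3 (left), control day 3 against day 0 (middle) and mutant day 3 against control day 0 (right), with filled points called at an adjusted p below 0.05. Alx4 is left of zero and Lhx8 right of it between genotypes, while 6 of 8 are called right of zero on induction of control cells.

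The members also differed from one another in profile over the 9 libraries. The closest pair was Dlx2 and Twist1 (distance 0.605), neither of which was called in any of the 3 comparisons, and the most distant pair was Msx1 and Dlx2 (2.75). Msx1 and Lhx8, both up in the day 3 groups, lay at 0.951, and Alx4 and Lhx8 at 2.45. Dlx1 and Dlx2, neighbours on chromosome 2, lay at 1.25.

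Genes that work with these factors were described from 3 lists, whose counts stand beside the shares over all genes tested: between genotypes 17.7% were called, 7.95% higher and 9.75% lower, and on induction 65.5% were called, 33.1% higher and 32.4% lower. Among 53 further transcription factors of arch and facial mesenchyme, 35 were tested, and 3 were called higher and 13 lower in the mutant at day 3, with a median log2 fold change of -0.33. Osr1, an odd-skipped zinc-finger factor, rose 2.21-fold (adjusted p = 2.2e-10), while the nuclear receptor gene Nr2f2 fell to 0.690 times (adjusted p = 2.6e-06). On induction of control cells 11 of the 35 rose and 8 fell, with a median of 0.09. Foxc1, a forkhead factor of facial mesenchyme, rose 3.14-fold, and Mef2c, a MADS-box factor downstream of endothelin, fell to 0.247 times.

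Among 24 genes of the signals that place the factors in the arch, 20 were tested, and 2 rose and 8 fell in the mutant at day 3, with a median of -0.26. Fgfr2, a receptor of the FGF pathway, fell to 0.423 times (adjusted p = 8.4e-11), Wnt5a, a Wnt ligand, to 0.642 times (adjusted p = 2.5e-05) and Nog, a BMP antagonist, to 0.330 times (adjusted p = 0.00056). The 2 that rose were Edn1, the endothelin ligand upstream of Hand2 (1.47-fold, adjusted p = 0.043), and Ece1, the enzyme that activates it (1.12-fold, adjusted p = 0.049). On induction 9 rose and 8 fell. Among those that fell were the BMP antagonist Grem1 at 0.175 times and Wnt5a at 0.505 times. Gnaq, a G protein subunit of endothelin signalling, fell to 0.625 times and its paralog Gna11 to 0.791 times. Those that rose included another BMP antagonist, Nog (2.31-fold), the endothelin receptor gene Ednra (1.94-fold), Ece1 (1.19-fold) and the phospholipase gene Plcb3 (1.14-fold). Fgf8 and Shh, epithelial signals of the embryonic arch, had 0 reads in both day 3 groups and at day 0.

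Of 21 partners of LIM homeodomain, Dlx and helix-loop-helix factors, 20 were tested, and 2 rose and 7 fell in the mutant, with a median of -0.13. Tcf4, an E protein that pairs with Twist1 and Hand2, fell to 0.807 times (adjusted p = 0.00030) and Lmo4, a LIM-only protein, to 0.806 times (adjusted p = 0.00040), while Ssbp4, a cofactor of LIM complexes, rose 1.32-fold (adjusted p = 0.00066). Induction raised 9 of them in control cells and lowered 6, with a median of 0.14. Among the inhibitors of helix-loop-helix factors, Id4 and Id3 rose 6.16-fold and 2.55-fold. Id2 fell to 0.531 times (adjusted p = 1.3e-10), and Id1 was not called (0.951 times, adjusted p = 0.65). Ssbp2 rose 2.56-fold. Runx2 and Sp7, the factors that commit cells to the osteoblast fate and that were not members, fell to 0.587 times (adjusted p = 5.0e-08) and 0.502 times (adjusted p = 0.00094) in the mutant. Sp7 was low, at 2.05 CPM in mutant libraries and 4.11 CPM in day 3 controls. On induction of control cells Runx2 rose 1.23-fold (adjusted p = 0.00061) and Sp7 was not called (1.19-fold, adjusted p = 0.23).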

How the data were processed

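RNA of 9 libraries was sequenced, with TRIzol extraction and an NEBNext Ultra II RNA kit, per the labels' protocols. Reads were processed with HISAT2, HTSeq and cutadapt on build GRCm39, per the submitters' processing notes. The sources used here give no versions, annotation release or strand setting. Raw whole-number counts and FPKM values were deposited side by side in 1 table, with gene lengths. The deposited FPKM equalled count over length and library total within a relative 0.0001 for all genes with at least 100 reads. It was used for levels between genes and in 2 alternatives. Of the table's lines, 1 was empty and left out. The 4 antisense genes that were looked for (such as Dlx1as) were not analysed here.

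Counts were filtered with filterByExpr (minimum count 10), scaled by TMM and tested with edgeR 4.0.16 under R 4.3.3, with 1 mean per group over all 9 libraries, by its quasi-likelihood test. Called genes had a Benjamini-Hochberg adjusted p below 0.05 over the 13013 genes tested. Standard errors are the log2 fold change over the root of F, and 95% intervals are unadjusted and cover each gene alone. CPM uses TMM-scaled totals. The floor of 3 reads is given over unscaled totals and covers counting error only. The fit was tested on counts simulated from day 3 control means, with few genes changed and each gene's spread equal in all groups. That test does not cover changes as wide as those on induction, or a larger spread in the mutant. The members and gene lists were chosen with earlier results of these data known. All members were named; of other lists up to 3 called genes of smallest p per comparison, and for Alx4 and Lhx8 the 3 nearest profiles (distance over log2 CPM, prior count 2, genes of at least 1 CPM with a named symbol). Some genes that the rule names are left out of the text. Paralogs of members, Edn1, Ece1, Prrx1, Fgf8, Shh, Hox genes and single macrophage markers were named beside the results after their values were seen. The same holds for Id1, Id2, Ednra, Gna11, Plcb3, further periosteal mesenchyme markers, and Nog and Sp7 on induction. Alternatives were DESeq2 1.42.0, RLE, upper-quartile or no scaling factors, other filters, only the 6 libraries compared, limma 3.58.1 on log2 FPKM with pseudocounts of 0.1 and 1, a replicate block, and leaving out each library.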

Additional observations from a re-analysis of the deposited data

How the results depend on the processing

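Alx4 and Lhx8 kept their direction and their call in all 3 comparisons under each of the 19 alternatives. For Alx4 the log2 difference between genotypes ran from -1.14 to -0.78, and for Lhx8 from 0.32 to 0.46. The number of members called was 2 in every alternative between genotypes, 4 to 6 on induction and 4 to 6 for mutant day 3 against control day 0. Over all genes, 2303 were called between genotypes, and 1479 to 2948 with 1 library left out. The lowest count, 1479, came without control day 3 replicate 2. No pairing by replicate number was seen over all genes. Deviations of same-numbered libraries correlated at -0.08 to 0.03, and not every library correlated best with its own number. Whether same-numbered libraries share a culture or mouse is not in the labels, and a pairing limited to few genes would be missed. With a replicate block, 2050 genes were called between genotypes, 8391 on induction and 8744 for mutant day 3 against control day 0, and no member gained or lost its call. Scaling by library totals alone shifted the median of all genes to -0.11 on induction and -0.14 for mutant day 3 against control day 0. The share of called genes that were higher was then 38.8% on induction (39.1% and 38.9% on FPKM), against 50.5% in the fit reported. For mutant day 3 against control day 0 it was 37.4% (37.6% and 37.4% on FPKM), against 49.2%. Between genotypes it was 36.5% (38.1% and 39.8% on FPKM) and 49.0% with RLE factors, against 44.9%.

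Values that were not called changed sign. On induction Dlx2 was at -0.0198 under library totals and at -0.0134 and -0.00734 on FPKM with pseudocounts of 0.1 and 1, and Twist1 at -0.0290, -0.0308 and -0.0285 in the same order. Between genotypes Msx1 ran from -0.0876 to 0.147 with 1 library left out. For mutant day 3 against control day 0, Twist1 ran from -0.148 to 0.0151 with 1 library left out, the highest without mutant replicate 1. In that comparison Dlx1 was called higher without mutant replicate 1 (adjusted p = 0.0495) or without control day 0 replicate 3 (adjusted p = 0.046), and Dlx2 and Twist1 were called lower on FPKM. A pseudocount of 1 on FPKM gave smaller log2 values for members of low level, such as 0.92 for Msx1 and 0.26 for Dlx1 on induction. With 19 to 54 reads of Hand2 and 2 to 11 of Lhx6 per library, depth limits both. The spread was larger in mutant libraries (biological coefficient of variation 0.0714) than in day 3 (0.0425) or day 0 controls (0.0494), and the shared fit averages over them.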
